A study of Homo sapiens with 6 samples.

Results

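The APOBEC3 genes are a family of 7 neighbouring human genes, APOBEC3A, APOBEC3B, APOBEC3C, APOBEC3D, APOBEC3F, APOBEC3G and APOBEC3H, and all 7 were measured in a stepwise model of cell transformation, among 18418 genes tested. Each member was represented by its probe set with the highest mean signal over all arrays. The model starts from BJ cells, primary human foreskin fibroblasts. BJEL cells are BJ cells that carry hTERT, which encodes the telomerase reverse transcriptase, together with the early region of SV40, which encodes the large T and small t antigens that inactivate RB and p53. BJELM cells were made from BJEL cells with the retroviral construct pBabe-MYC-ER, which encodes MYC fused to a hormone-binding domain of the estrogen receptor. Therefore BJELM cells share these elements with BJEL cells. BJEL cells were grown in G-418 and hygromycin, and BJELM cells in the same drugs plus puromycin and continuous 4-hydroxytamoxifen (4-OHT), so drugs and introduced genes cannot be told apart. Each cell line had 2 arrays, described as biological replicates, and whether they came from separate cultures is not stated, so the p-values measure the spread between these arrays.

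APOBEC3 proteins deaminate cytidine to uridine in single-stranded DNA. They act in the innate defence against retroviruses and retroelements, whose reverse transcripts they mutate or block, and several of the genes are induced by interferon. APOBEC3B, APOBEC3D, APOBEC3F and APOBEC3G encode proteins with a pair of zinc-coordinating deaminase domains, whereas APOBEC3A, APOBEC3C and APOBEC3H encode proteins with a single such domain. APOBEC3B resides mainly in the nucleus and is known as a source of cytidine mutations in tumors. In epithelial and cancer cells its transcription is known to be held down by the DREAM complex of RB family and E2F proteins and to rise when viral oncoproteins inactivate that control.

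The genes lie side by side on chromosome 22. In RefSeq (GRCh38.p14), the cluster runs from 38957609 to 39104067, over 146 kb, with 0 other measured protein-coding genes between its ends. From one end to the other stand APOBEC3A (chr22:38957609-38963184), APOBEC3B (chr22:38982347-38992779), APOBEC3C (chr22:39014257-39020352), APOBEC3D (chr22:39021127-39033277), APOBEC3F (chr22:39040864-39055972), APOBEC3G (chr22:39077005-39087743) and APOBEC3H (chr22:39097244-39104067). The array annotation does not name its build, so these positions give the order of the genes alone. The 7 members had 8 probe sets, of which 0 were shared between members. The probe set of APOBEC3A is also annotated to APOBEC3A_B, the hybrid gene left by a known deletion between APOBEC3A and APOBEC3B, and APOBEC3F had 2 probe sets. Since the genes are similar in sequence, a probe set may also read RNA of other members, which was not tested.

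Signals are RMA values, that is background-corrected, normalized and summarized probe signals on the log2 scale, where a difference of 1 is a fold change of 2. The array medians lay between 6.37 and 6.46. As a check of the labels, TERT averaged 7.82 in BJ, 10.84 in BJEL and 10.81 on BJELM-labelled arrays. MYC averaged 9.24 ± 0.474 on BJELM-labelled arrays, against 10.17 ± 0.0719 in BJEL (mean ± SD of 2 arrays), so its signal was not higher there and the cells are named below by their label. Which MYC transcripts the probe set reads, and whether they include the construct, was not tested. Of 12 fibroblast markers, 11 had a mean at or above that of the median gene (7.26). By the rule for calls given below, 6 fell in BJEL against BJ and 9 fell on BJELM-labelled arrays against BJ. Over all genes 2.29% and 4.7% fell in these comparisons. Of 12 measured leukocyte markers, 2 reached the level of the median gene. From these 2, CD68, which fibroblasts also express, fell on BJELM-labelled arrays against either other line. In bulk RNA, fewer cells of a type and less RNA per cell cannot be told apart.

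BJEL cells had more APOBEC3B, APOBEC3D and APOBEC3G RNA than BJ cells, by 2.05-fold, 2.42-fold and 3.68-fold. These 3 of the 7 members rose, which means here an adjusted p under 0.05 in limma (two-sided, Benjamini-Hochberg over all genes) together with a fold change of at least 2. Among all genes tested 2.89% rose by this rule in BJEL against BJ and 2.29% fell, and no member fell. The median log2 fold change was 1.03 over the 7 members and -0.02 over all genes. The members that rose encode proteins with paired deaminase domains, and the remaining member of that kind, APOBEC3F, had a fold change of 2.36 with an adjusted p of 0.115.

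**Figure D1:**
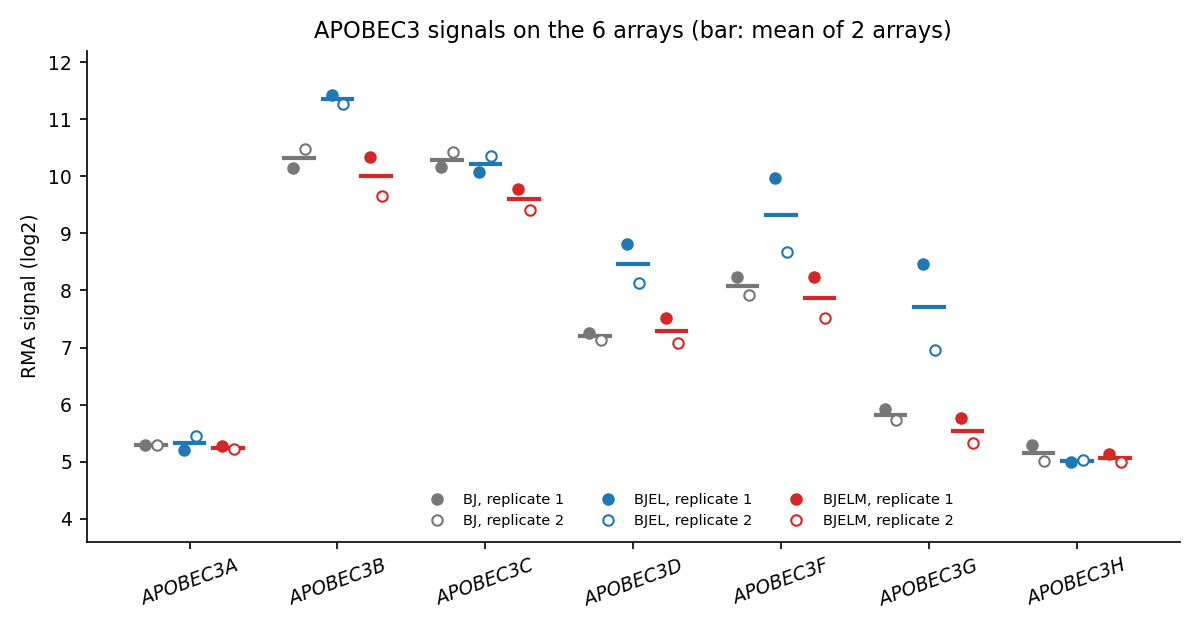
RMA signal (log2, vertical axis) of each APOBEC3 gene on the 6 arrays, grouped by gene, with BJ in grey, BJEL in blue and BJELM in red. Filled points are replicate 1, open points replicate 2 and bars the mean of both. The BJEL points of APOBEC3B, APOBEC3D, APOBEC3F and APOBEC3G lie above all BJ and BJELM points, and how many of all genes separate so was not counted. The BJEL points of APOBEC3F and APOBEC3G are the farthest apart.

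APOBEC3B, the nuclear mutator of the family, had signals of 10.15 and 10.48 in BJ, 11.42 and 11.27 in BJEL and 10.35 and 9.66 on BJELM-labelled arrays (replicates 1 and 2). Both BJEL arrays lay above the other 4 arrays, and the BJELM and BJ arrays overlapped. How many of all genes separate without overlap was not counted, here or for the other members and comparisons below. The log2 fold change of BJEL against BJ was 1.03 ± 0.233 (SE, adjusted p = 0.0304 in limma).

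APOBEC3G, a restriction factor that is packaged into virions of Vif-deficient HIV-1 and mutates the viral DNA, had signals of 5.92 and 5.74 in BJ, 8.46 and 6.95 in BJEL and 5.76 and 5.32 on BJELM-labelled arrays. BJEL again stood above both other lines without overlap, but its own arrays were 1.51 apart. The log2 fold change of BJEL against BJ was 1.88 ± 0.458 (adjusted p = 0.0387). In BJ and on BJELM-labelled arrays its signal lay below that of the median gene, and with a minimum group mean of 6 the gene enters the tests only through BJEL.

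APOBEC3D, whose product also restricts Vif-deficient HIV-1, had signals of 7.25 and 7.14 in BJ, 8.81 and 8.13 in BJEL and 7.52 and 7.07 on BJELM-labelled arrays. The BJEL arrays were the highest in either replicate, and the arrays of the other lines were interleaved. BJEL against BJ gave a log2 fold change of 1.27 ± 0.246 (adjusted p = 0.0184).

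APOBEC3F, the closest functional companion of APOBEC3G in HIV-1 restriction, had signals of 8.23 and 7.93 in BJ, 9.97 and 8.67 in BJEL and 8.24 and 7.51 on BJELM-labelled arrays. The lower BJEL array still exceeded the highest array of the other lines. With a log2 fold change of 1.24 ± 0.44, the difference between BJEL and BJ did not pass the test (95% interval 0.17 to 2.31, adjusted p = 0.115), whereas with the replicate number as a block it did (adjusted p = 0.00407). The other probe set of APOBEC3F gave 1.05 ± 0.309 in a fit on every probe set (adjusted p = 0.121).

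The members with a single deaminase domain gave smaller differences between BJEL and BJ. APOBEC3C, a weak inhibitor of HIV-1 that is broadly expressed, had signals of 10.08 and 10.36 in BJEL, against 10.17 and 10.42 in BJ, and these overlapped (log2 fold change -0.07, 95% interval -0.49 to 0.34). APOBEC3A, a deaminase known mainly from myeloid cells and keratinocytes, had 5.20 and 5.45 in BJEL, against 5.30 and 5.29 in BJ, and its interval ran from -0.23 to 0.29. APOBEC3H had 4.99 and 5.03 in BJEL, against 5.28 and 5.01 in BJ, with an interval from -0.42 to 0.15. APOBEC3A and APOBEC3H stayed below the median gene on all 6 arrays, where a low signal may hide a change, and neither has a group mean of 6.

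On BJELM-labelled arrays, the same 3 genes were lower than in BJEL, APOBEC3B by 2.54-fold, APOBEC3D by 2.26-fold and APOBEC3G by 4.49-fold, and these 3 of 7 members fell. Among all genes 1.76% fell and 0.923% rose in BJELM against BJEL, and no member rose. The log2 fold change of APOBEC3B was -1.34 ± 0.233 (adjusted p = 0.02), that of APOBEC3D -1.17 ± 0.246 (adjusted p = 0.0353) and that of APOBEC3G -2.17 ± 0.458 (adjusted p = 0.0362), with no overlap between the lines. APOBEC3F had a log2 fold change of -1.44 ± 0.44 that did not pass (adjusted p = 0.0972, or 0.00312 with the replicate block), and its other probe set gave -1.58 ± 0.309 (adjusted p = 0.0632). Because this comparison and that of BJEL with BJ share the BJEL arrays, a high BJEL signal enters both with opposite sign. The median over the members was -1.17, against 0.03 over all genes.

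APOBEC3C was 9.79 and 9.41 on BJELM-labelled arrays, against 10.08 and 10.36 in BJEL and 10.17 and 10.42 in BJ. Its BJELM signals lay below those of both other lines without overlap, and how many of all genes do so was not counted. Against BJEL its log2 fold change was -0.62 ± 0.171 (adjusted p = 0.0738). Against BJ it was -0.70 ± 0.171 with an adjusted p of 0.0267, but the change of 1.62-fold was under the fold minimum.

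Relative to BJ, BJELM-labelled arrays had 0 of 7 members called in limma, while 4.09% of all genes rose and 4.7% fell. At an unadjusted p under 0.05 in limma there was 1 member, APOBEC3C. A t-test with unequal variances on 2 against 2 arrays, run in place of the methods' modified t-test, called 0. APOBEC3B had a log2 fold change of -0.31 (95% interval -0.88 to 0.26), APOBEC3D 0.10 (-0.50 to 0.70), APOBEC3F -0.21 (-1.28 to 0.86) and APOBEC3G -0.29 (-1.40 to 0.83). For the last 2 of these genes the intervals include changes of more than 2-fold, so BJELM and BJ levels cannot be called alike. APOBEC3A and APOBEC3H had intervals from -0.30 to 0.21 and from -0.37 to 0.20.

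**Figure D2:**
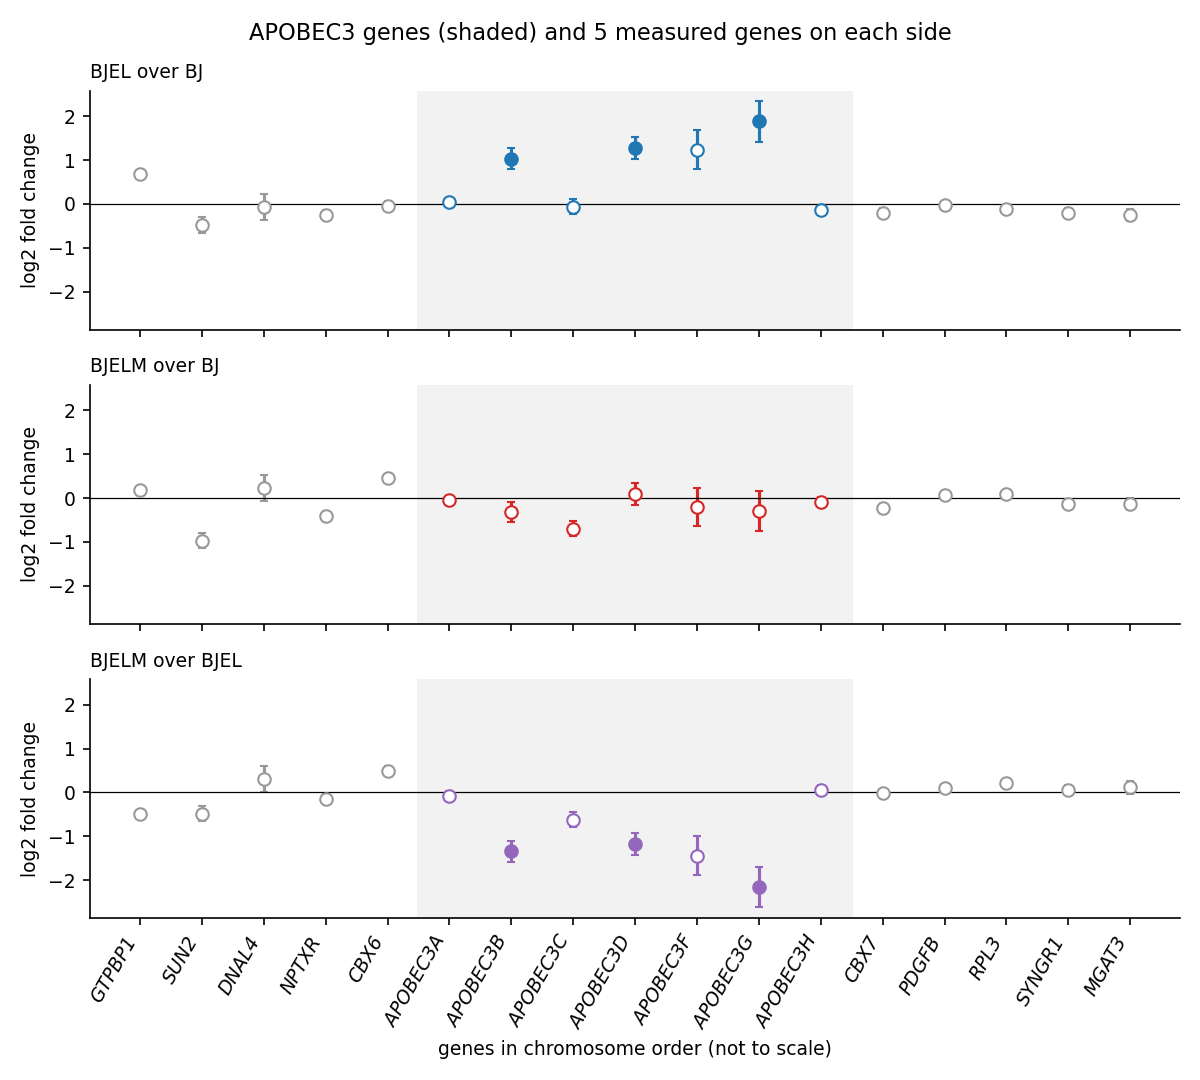
Log2 fold change (vertical axis, bars are standard errors, 2 arrays a line) of BJEL over BJ, BJELM over BJ and BJELM over BJEL for the APOBEC3 genes, shaded, and the 5 nearest measured genes on each side in chromosome order. Filled points passed the adjusted p and fold minimum; in the upper panel APOBEC3B, APOBEC3D and APOBEC3G are filled, in the middle panel none, and in the lower panel the same 3 genes.

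No gene beside the cluster passed both the adjusted p and the fold minimum. Few of all genes did so either, by the shares given above. The 5 nearest measured genes on each side are GTPBP1, SUN2, DNAL4, NPTXR and CBX6 before APOBEC3A and CBX7, PDGFB, RPL3, SYNGR1 and MGAT3 after APOBEC3H. In limma 0 of these 10 genes were called in any comparison, and their log2 fold changes lay between -0.49 and 0.68 for BJEL against BJ, between -0.97 and 0.46 for BJELM against BJ and between -0.50 and 0.50 for BJELM against BJEL. At an unadjusted p under 0.05 there were 2 neighbours for BJEL against BJ, 3 for BJELM against BJ and 4 for BJELM against BJEL. SUN2, a nuclear envelope protein gene, had 8.74 and 8.24 on BJELM-labelled arrays, against 9.59 and 9.33 in BJ, a log2 fold change of -0.97 (adjusted p = 0.00899) just under the fold minimum, and NPTXR and CBX6 also had an adjusted p under 0.05 there. GTPBP1, a GTP-binding protein gene, had the largest of these values for BJEL, with 10.02 and 9.86 in BJEL, against 9.32 and 9.20 in BJ (log2 fold change 0.68, adjusted p = 0.00768). On BJELM-labelled arrays GTPBP1 was lower than in BJEL (log2 fold change -0.50, adjusted p = 0.0318). CBX6 was higher there than in BJEL (0.50, adjusted p = 0.0296), and both changes were under the fold minimum.

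The calls rested on 2 arrays a line, and leaving out 1 array in turn moved several of them. For BJEL against BJ, no member was called without BJ replicate 1 or without BJ replicate 2, when APOBEC3B had adjusted p-values of 0.16 and 0.0639, APOBEC3D of 0.0839 and 0.0837 and APOBEC3G of 0.14 and 0.143. Without BJEL replicate 1, APOBEC3G alone was called, with a log2 fold change of 1.13, and APOBEC3D had 0.93, APOBEC3B 0.96 and APOBEC3F 0.59. Without BJEL replicate 2, APOBEC3D, APOBEC3F and APOBEC3G were called with 1.61, 1.89 and 2.63, and APOBEC3B was not, with 1.11 (adjusted p = 0.0926). Without either BJELM array the calls were those of all 6 arrays. The direction of these 4 genes was the same in all 6 fits. It could not change, because their BJEL and BJ arrays did not overlap.

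The decrease on BJELM-labelled arrays was likewise called for other members depending on the array left out. APOBEC3B alone was called without BJ replicate 1, without BJ replicate 2 or without BJELM replicate 2, where it had -1.34, -1.34 and -1.002. Without BJEL replicate 1 APOBEC3G alone was called, at -1.41, and without BJEL replicate 2 APOBEC3D, APOBEC3F and APOBEC3G were called, at -1.51, -2.09 and -2.92. Without BJELM replicate 1 APOBEC3B and APOBEC3D were called, at -1.69 and -1.40. APOBEC3F without BJEL replicate 1 had -0.80. The direction of APOBEC3B, APOBEC3D, APOBEC3F and APOBEC3G was again the same in all 6 fits. Without overlap between their BJEL and BJELM arrays, it could not change here either.

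**Figure D3:**
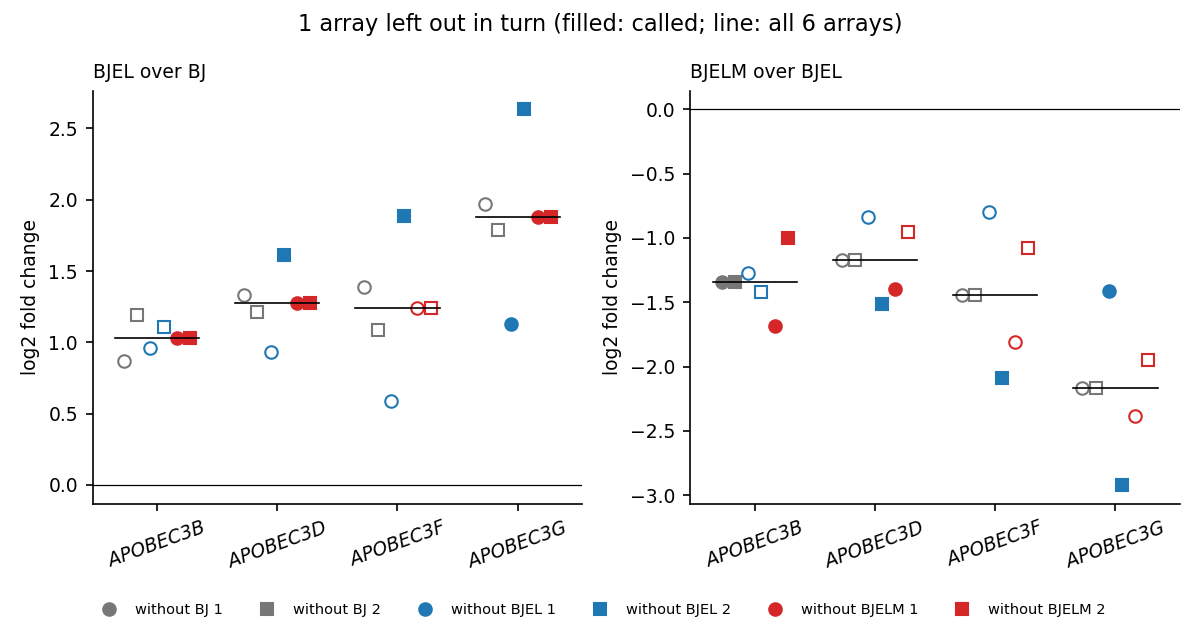
Log2 fold change (vertical axis) of APOBEC3B, APOBEC3D, APOBEC3F and APOBEC3G with 1 array left out, for BJEL over BJ (left) and BJELM over BJEL (right); colour gives the cell line and shape the replicate left out, filled points were called and the line marks all 6 arrays. APOBEC3G without BJEL replicate 1 lies at 1.13 and without BJEL replicate 2 at 2.63, while the APOBEC3B points on the left lie between 0.87 and 1.19.

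The BJEL arrays differed from each other in APOBEC3D, APOBEC3F and APOBEC3G, and less in APOBEC3B. BJEL replicate 1 exceeded replicate 2 by 1.51 for APOBEC3G, by 1.295 for APOBEC3F and by 0.68 for APOBEC3D, and by 0.15 for APOBEC3B. A gap at least as large was present in 0.0814% of all genes for APOBEC3G, in 0.163% for APOBEC3F and in 1.22% for APOBEC3D, against 42.1% for APOBEC3B. The median absolute gap of all genes was 0.12. On BJELM-labelled arrays, replicate 1 exceeded replicate 2 in all 7 members, by 0.68 for APOBEC3B and 0.73 for APOBEC3F. Gaps at least as large were present in 1.91% and 1.56% of all genes, against 80.6% for APOBEC3A and 52.1% for APOBEC3H. There the median absolute gap of all genes was 0.14.

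Other antiviral genes differed between the BJEL arrays in the same direction. Restriction factors outside the APOBEC3 family block retroviral infection at other steps, and 15 of 16 measured ones were higher on BJEL replicate 1, by a median of 0.36. Replicate 1 was also the higher one on BJELM-labelled arrays for 13 of the 16 (median 0.33) and in BJ for 12 (median 0.12). Over all genes the median difference was 0.01 in BJEL, 0.04 on BJELM-labelled arrays and 0.03 in BJ. The share of all genes higher on replicate 1 was not counted. MX2, which blocks nuclear import of HIV-1, had 11.82 and 9.95 on the BJEL arrays, and TRIM22, an interferon-induced antiviral protein, had 9.89 and 7.88. USP18, a negative regulator of interferon signalling, had 11.45 and 9.98, but the interferon signalling list as a whole had a median gap of 0.08, with 13 of 17 genes higher on replicate 1. The regulators of the E2F, DREAM and MYB type had a median gap of 0.11, with 14 of 22 higher on replicate 1, and MYBL2, which encodes B-MYB, had 11.19 and 11.04. What set the BJEL arrays apart was not tested.

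**Figure D4:**
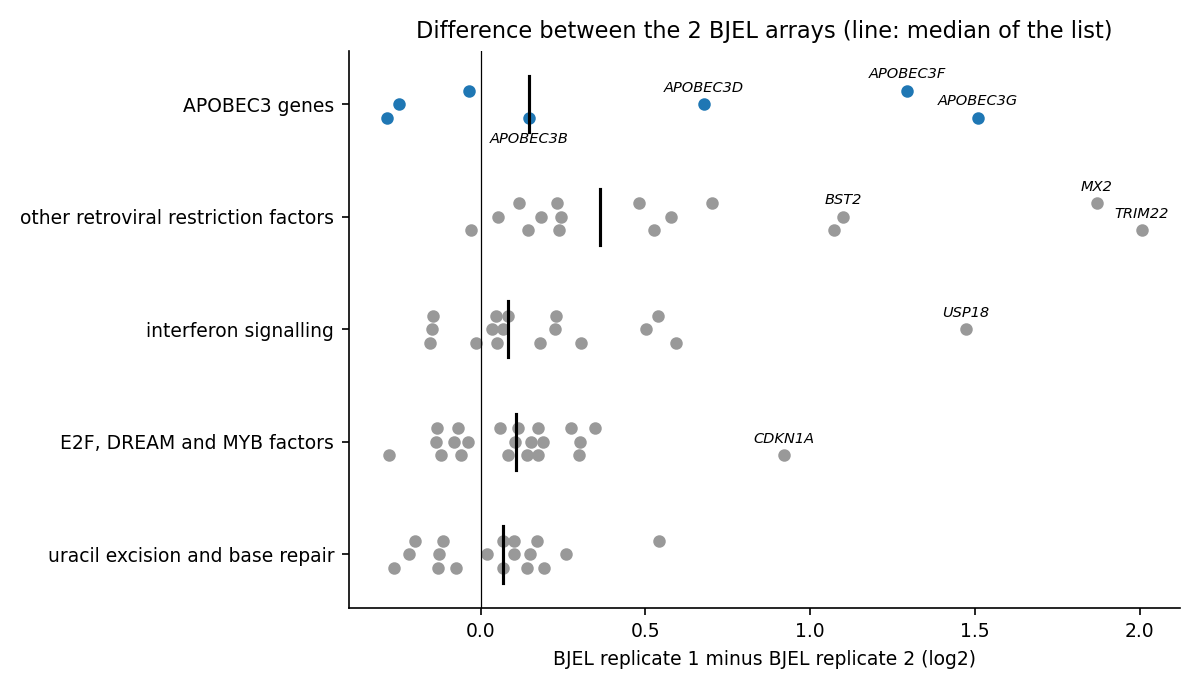
BJEL replicate 1 minus BJEL replicate 2 (log2, horizontal axis) for the APOBEC3 genes (blue) and the genes of 4 lists (grey), with a line at the median of each list. APOBEC3D, APOBEC3F and APOBEC3G lie to the right at 0.68, 1.295 and 1.51 with MX2, TRIM22, BST2 and USP18, whereas APOBEC3B lies at 0.15.

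Restriction factors other than APOBEC3 genes also differed between the cell lines. For comparison, 2.89% of all genes rose and 2.29% fell in BJEL against BJ. In BJELM against BJEL 0.923% rose and 1.76% fell, and in BJELM against BJ 4.09% rose and 4.7% fell. Of 16 measured, 5 rose and 0 fell in BJEL against BJ (1 fell without BJ replicate 2), with a median log2 fold change of 0.51. BST2, which tethers budding virions to the cell surface, had signals of 11.40 and 10.30 in BJEL, against 5.69 and 5.37 in BJ, a log2 fold change of 5.32 ± 0.417 (adjusted p = 0.00118). MX2 rose by 4.56, SAMHD1, which depletes deoxynucleotides, by 2.55 and SLFN11, which acts on tRNAs in virus-producing cells, by 1.51. On BJELM-labelled arrays, 7 fell against BJEL and 0 rose, and fewer fell in every fit with 1 array left out. The largest decreases were MX2 at -5.44, BST2 at -4.28, TRIM22 at -3.51 and IFITM1 at -2.77. Against BJ, 2 rose and 3 fell there, among them SLFN11 at 1.08 and TRIM22 at -3.59. The 2 that rose were 0 without BJELM replicate 1 and 1 without BJ replicate 1, without BJ replicate 2 or without BJELM replicate 2, and the 3 that fell were 2 without BJ replicate 1.

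Interferon signalling genes were called mainly on BJELM-labelled arrays against BJEL. Over all genes 2.89% rose in BJEL against BJ, 1.76% fell in BJELM against BJEL and 4.7% fell in BJELM against BJ. Of 17 measured genes for interferons, receptors, kinases, interferon regulatory factors and feedback inhibitors, 1 rose in BJEL against BJ, USP18, by 3.12 ± 0.439 (adjusted p = 0.00627), and the median was 0.09, with 12 of the 17 at an unadjusted p under 0.05. Without BJEL replicate 2 there were 2 that rose. On BJELM-labelled arrays, 4 fell against BJEL, namely USP18 (-3.74), IRF9 (-2.44), IRF2 (-1.45) and IRF7 (-1.01), and without BJEL replicate 1 there was 1. IRF9, an interferon regulatory factor, was the 1 gene that fell against BJ, by 1.41 on the log2 scale. This count was 0 without BJ replicate 1 or without BJELM replicate 2 and 3 without BJELM replicate 1.

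Several of the E2F, DREAM and MYB factors, which are known to control APOBEC3B, rose in BJEL. Of 22 measured, 7 rose and 1 fell in BJEL against BJ, with a median of 0.53, while 2.89% of all genes rose and 2.29% fell. RBL1, the p107 subunit of DREAM, rose by 1.80 ± 0.116 (adjusted p = 0.000734), the repressor E2F7 by 1.65 and the DREAM and MYB subunit LIN9 by 1.63. CDKN1A, which encodes the p53-induced inhibitor p21, fell by 1.88 on the log2 scale (adjusted p = 0.0379) and was not called without BJ replicate 1, BJ replicate 2, BJEL replicate 1 or BJEL replicate 2. On BJELM-labelled arrays, 1 rose and 2 fell against BJEL, E2F5 (1.65), E2F8 (-1.22) and MYBL1 (-1.09), while 0.923% of all genes rose and 1.76% fell. E2F8 had signals of 7.06 and 7.18 in BJ, 8.39 and 8.53 in BJEL and 7.46 and 7.01 on BJELM-labelled arrays, and MYBL1 had 9.78 and 9.93, 11.23 and 11.29, and 10.14 and 10.20 in the same order, so that both were highest in BJEL. The 2 that fell were 1 without BJEL replicate 2 and 3 without BJELM replicate 1. Against BJ, 5 rose there and 1, CDKN1A, fell, while 4.09% of all genes rose and 4.7% fell.

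Cytidine deaminase genes outside the cluster were dim. The 4 measured relatives outside the cluster and their cofactors (APOBEC1, APOBEC4, A1CF and RBM47) were all below the median gene, and limma called 0 in each of the comparisons, with 1 at an unadjusted p under 0.05 for BJEL against BJ, RBM47 with a log2 fold change of 0.22. Among 18 measured genes of uracil excision and base repair, which remove the product of deamination, 2 rose in BJEL against BJ, the uracil glycosylase gene UNG by 1.03 ± 0.115 and the flap nuclease gene FEN1 by 1.19 ± 0.126 (adjusted p = 0.00306 and 0.00264). Without BJ replicate 1 or BJEL replicate 1 there was 1. Unlike the APOBEC3 genes that rose in BJEL, UNG was not lower on BJELM-labelled arrays. It had 9.97 and 9.81 there, against 9.66 and 9.47 in BJEL. On BJELM-labelled arrays 4 of the 18 rose against BJ (UNG, FEN1, PARP1 and RPA2). Over all genes 2.89% rose in BJEL against BJ and 4.09% in BJELM against BJ.

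Among 6 RNA adenosine deaminases, the interferon-inducible ADAR had signals of 10.85 and 10.66 in BJEL, against 10.02 and 9.99 in BJ, a log2 fold change of 0.75 (adjusted p = 0.00426) that was under the fold minimum. ADAT2, a tRNA deaminase gene, rose on BJELM-labelled arrays against BJ (1.66) and against BJEL (1.10). In limma, which called few of all genes, 0 of 14 NF-kB factors and 0 of 12 genes for protein partners of APOBEC3 enzymes were called in any comparison. However, 10 and 4 of them had an unadjusted p under 0.05 for BJEL against BJ. The share of all genes at that unadjusted p was not counted, here or for the lists and neighbours above. The t-test with unequal variances called 0 members between any pair of lines.

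The genes whose pattern over the 6 arrays was nearest to each member were found by the root mean square difference of the signals, after each gene's own mean was subtracted, among genes whose mean reached that of the median gene. This is a description, and arrays of 1 cell line share that line. For APOBEC3D the nearest were TAP2 (0.095), a peptide transporter gene of antigen presentation, HELZ2 (0.140) and EIF2AK2 (0.147), the antiviral kinase PKR. APOBEC3F was nearest to UBE2L6 (0.169), which conjugates ISG15, then UNC93B1 (0.221) and ISG15 itself (0.256), a ubiquitin-like protein induced by interferon. APOBEC3G was nearest to ISG15 (0.225), PARP12 (0.238) and CMPK2 (0.248). ISG15 had signals of 7.47 and 7.23 in BJ, 9.61 and 8.19 in BJEL and 7.16 and 7.16 on BJELM-labelled arrays, with the BJEL arrays far apart, as for APOBEC3G. APOBEC3B had other neighbours, MATN2 (0.137), a matrix protein gene, IQGAP3 (0.182) and MACROH2A2 (0.182), a histone variant gene. APOBEC3C was nearest to MAVS (0.085), ABI3BP (0.086) and ARHGAP35 (0.101).

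Within the family, APOBEC3D and APOBEC3F (0.245) and APOBEC3B and APOBEC3D (0.269) had the most similar patterns among the 4 genes with paired domains, followed by APOBEC3F and APOBEC3G (0.341), and APOBEC3B and APOBEC3G differed by 0.579. APOBEC3A and APOBEC3H had nearly flat patterns and differed by 0.124, and their nearest genes, PPP1R37 (0.017) and TMEM121B (0.036), were flat as well.

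Promoter windows from RefSeq (GRCh38.p14), 250 bases before to 50 after a transcript's start, were matched for 1 of the 7 members, APOBEC3H (chr22:39096994-39097293, plus strand). They were searched on both strands for GAAANNGAA, the core of the interferon-stimulated response element, which overlaps itself in longer elements. Of 35116 windows, 8.11% held it. Among the 8 genes nearest to APOBEC3D, APOBEC3F or APOBEC3G, 7 had a window and 5 of these held a match (TAP2, EIF2AK2, ISG15, PARP12 and CMPK2), against 0 of 4 with a window among the 6 genes nearest to APOBEC3B or APOBEC3C. These genes were picked by their signals, so the shares are a description. The windows of APOBEC3H and of the leading neighbours ISG15 (chr1:1013247-1013546, plus strand) and TAP2 (chr6:32838690-32838989, minus strand) are shown for comparison, in the direction of transcription, with matches in capitals.
APOBEC3H: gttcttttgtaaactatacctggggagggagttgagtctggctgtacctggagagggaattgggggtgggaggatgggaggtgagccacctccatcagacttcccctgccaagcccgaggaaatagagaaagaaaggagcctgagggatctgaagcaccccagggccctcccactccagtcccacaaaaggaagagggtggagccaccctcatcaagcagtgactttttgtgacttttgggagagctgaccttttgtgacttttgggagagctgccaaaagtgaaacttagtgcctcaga
ISG15: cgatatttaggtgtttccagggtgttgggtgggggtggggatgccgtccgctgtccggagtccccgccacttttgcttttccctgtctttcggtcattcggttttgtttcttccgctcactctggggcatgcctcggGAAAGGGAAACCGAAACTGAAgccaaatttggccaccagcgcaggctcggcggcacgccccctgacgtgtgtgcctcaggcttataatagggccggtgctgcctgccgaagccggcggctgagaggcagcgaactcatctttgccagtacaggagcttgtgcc
TAP2: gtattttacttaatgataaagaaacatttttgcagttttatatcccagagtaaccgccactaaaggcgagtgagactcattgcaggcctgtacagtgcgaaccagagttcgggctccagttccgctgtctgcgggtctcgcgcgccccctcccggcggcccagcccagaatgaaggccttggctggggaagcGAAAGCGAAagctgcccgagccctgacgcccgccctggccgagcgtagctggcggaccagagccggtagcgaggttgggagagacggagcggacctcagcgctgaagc
In the ISG15 window 3 overlapping matches begin 113, 107 and 101 bases before the start, and in that of TAP2 1 match begins 58 bases before it. The window of APOBEC3H held no match to these letters, nor to TTCNNNGAA, the gamma-activated site (7.66% of all windows), to the E2F motifs TTTCCCGC, TTTGGCGC and TTCCCGCC, of which 2 overlap each other (4.59%), to the cell cycle homology region TTTGAA or TTCGAA (16.4%), or to the kB letters GGGNNTTTC and GGGNNTTCC (10.6%).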

How the data were processed

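RNA was hybridized to Affymetrix Gene 1.0 ST arrays, 2 for each of BJ, BJEL and BJELM. The deposited log2 signals come from RMA with its defaults, run by the authors over the 6 arrays in Affymetrix Expression Console 1.3.1. No raw intensities were used, arrays have no count depth, and their number limits precision.

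A probe table lists 21214 of 33297 probe sets, 19460 with 1 symbol and 1754 with several. Symbols were updated through RefSeq (GRCh38.p14), and each gene took the brightest of its probe sets that carry 1 symbol, or for APOBEC3A by its shared probe set, giving 18418 genes. The members and gene lists were chosen with earlier results of these data known. Named genes are the members, the largest changes per list (up to 4 called, otherwise 2), 5 neighbours on each side and the 3 nearest patterns per member, with others chosen after their values were seen.

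Differences were fitted with limma 3.58.1 in R 4.3.3, with a mean per cell line (3 residual and 3.13 prior degrees of freedom), and tested on simulated data. Called genes had a Benjamini-Hochberg adjusted p under 0.05 and a fold change of at least 2. Same-numbered arrays deviated together (correlations 0.448, 0.481 and 0.553), although the labels do not state a shared batch. The main fit did not pair the arrays, and the replicate number entered only in the replicate block below. Alternatives were each array left out, the replicate block, 2 groups, scaling, filters, probe set rules and a t-test with unequal variances. That t-test stands in for the methods' modified t-test and may differ from it. The study compared BJEL and BJELM with BJ, whereas the t-test was also run here for BJELM against BJEL. Chromatin data were not used here.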

Additional observations from a re-analysis of the deposited data

How the results depend on the processing

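With all 6 arrays, 3 members rose in BJEL against BJ, 0 were called in BJELM against BJ and 3 fell in BJELM against BJEL. With the t-test with unequal variances, unadjusted or adjusted, 0 rose in BJEL against BJ and 0 fell in BJELM against BJEL. With every probe set tested these counts were 1 (APOBEC3D) and 0. In a fit on the 2 lines compared, 1 fell in BJELM against BJEL (APOBEC3B, while APOBEC3D and APOBEC3G both had an adjusted p of 0.07). Without the fold minimum 1 fell in BJELM against BJ, APOBEC3C. Leaving out 1 array gave 0 to 3 that rose in BJEL against BJ and 1 to 3 that fell in BJELM against BJEL. The replicate block called 4 and 4, adding APOBEC3F both times, and changed no other call of a member. Quantile normalization dropped APOBEC3B in BJEL against BJ (log2 fold change 0.99), and the mean over probe sets added APOBEC3F in BJELM against BJEL (adjusted p = 0.0494). When only genes as bright as the median gene were fitted, APOBEC3G was not tested and 2 members were called in each. Over the single-gene fold changes of the members under the alternatives, 318 stayed on their side of the thresholds and 39 lost a call. A further 6 gained one and 0 changed sign with a call. Only fold changes called with all 6 arrays could lose a call, and most of the 318 had none to lose. The cause of these differences was not tested. Rescaling moved a member by at most 0.0872. APOBEC3A and APOBEC3H were dim on all arrays, which limits what their values show.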
